A study of Microcebus murinus with 18 samples.

Results

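Brain capillaries and arterioles are built from a small set of cells whose genes are described here in the temporal cortex of the grey mouse lemur (*Microcebus murinus*, a small primate), in “AD-like”, healthy old and young adult animals. The list holds 46 genes of 19775 that had a probe set annotated to 1 gene symbol on the human array used, and was taken as given: 12 endothelial surface and identity genes, 4 of the tight junction, 7 of barrier transport, 6 angiogenic ligands and receptors, 8 of mural cells and 9 of the basement membrane. All 131 probe sets annotated to 1 of these symbols were read, and 1 probe set shared by ABCB4 and ABCB1 was left out. All 46 symbols belong to protein-coding genes in the lemur annotation.

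Total RNA of the temporal cortex was hybridised to human HG-U133 Plus 2.0 arrays, 1 array for each of 18 animals born in 1 breeding colony. The groups were 2 “AD-like” animals, both old females with ß-amyloid plaques and cortical atrophy, 10 old animals in good health, of which 3 were male, and 6 young adults, of which 2 were male. No animal was treated or carried an introduced allele, and the “AD-like” group is limited to a spontaneous condition in 2 females. The comparisons ask how vascular gene signals differed with plaque pathology (“AD-like” against old), with ageing (old against young adult) and with both together (“AD-like” against young adult).

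Endothelial cells line the vessels of the brain, are sealed to each other by tight junctions and carry nutrients in and drugs out through dedicated transporters. Pericytes and smooth muscle cells, together called mural cells, wrap around them, and both cell types share a basement membrane of collagen IV, laminins and fibronectin. VEGF, angiopoietin and PDGF signals between these cells form and maintain the vessels, and amyloid can also be laid down in the vessel wall. In whole cortex, fewer vascular cells and less RNA per vascular cell cannot be told apart.

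Signals are linear MAS5 values, scaled by the authors so that the trimmed mean of each array is 100. Before any vascular gene was read, 4 arrays stood apart, as 1 array of an “AD-like” animal (F2), 2 of old males (M1 and M2) and 1 of a young adult male (M2) carried almost no poly-A control RNA, which is added to the RNA before labelling. The mean signal of that control was 10.2 to 27.8 on these 4 arrays and at least 197 on the other 14. The array medians lay between 30.8 and 54.4. A probe set was kept for testing when it reached a signal of 150 on at least 3 arrays, and 14567 of 54613 did. The “AD-like” group had 2 animals, so a probe set bright in them alone could not pass, whereas one dim in them alone could.

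Many vascular genes gave no usable signal. A kept probe set was found for 22 of the 46 genes (47.8%), close to the 43.8% of all genes on the array, and 30 of the 131 probe sets were kept. The share differed by role. Angiogenic genes (4 of 6) and basement membrane genes (6 of 9) were represented more fully than endothelial surface genes (5 of 12), mural genes (4 of 8), transporters (2 of 7) and junction genes (1 of 4). Of 6 defining endothelial markers only PECAM1, an adhesion molecule of endothelial junctions, and TEK, the angiopoietin receptor TIE2, were kept. CDH5, the endothelial cadherin, reached a signal of 88.7 at most, VWF, the von Willebrand factor of endothelial granules, 62.5, and TIE1, the companion receptor of TEK, 110.4. Of 6 defining mural markers ACTA2, NOTCH3 and RGS5 were kept, whereas PDGFRB, the PDGF receptor that marks pericytes, reached 138 at most. Neuron markers were all kept (8 of 8). A low level of the RNA and a poor match of a human probe to the lemur transcript cannot be told apart from these signals.

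**Figure D1:**
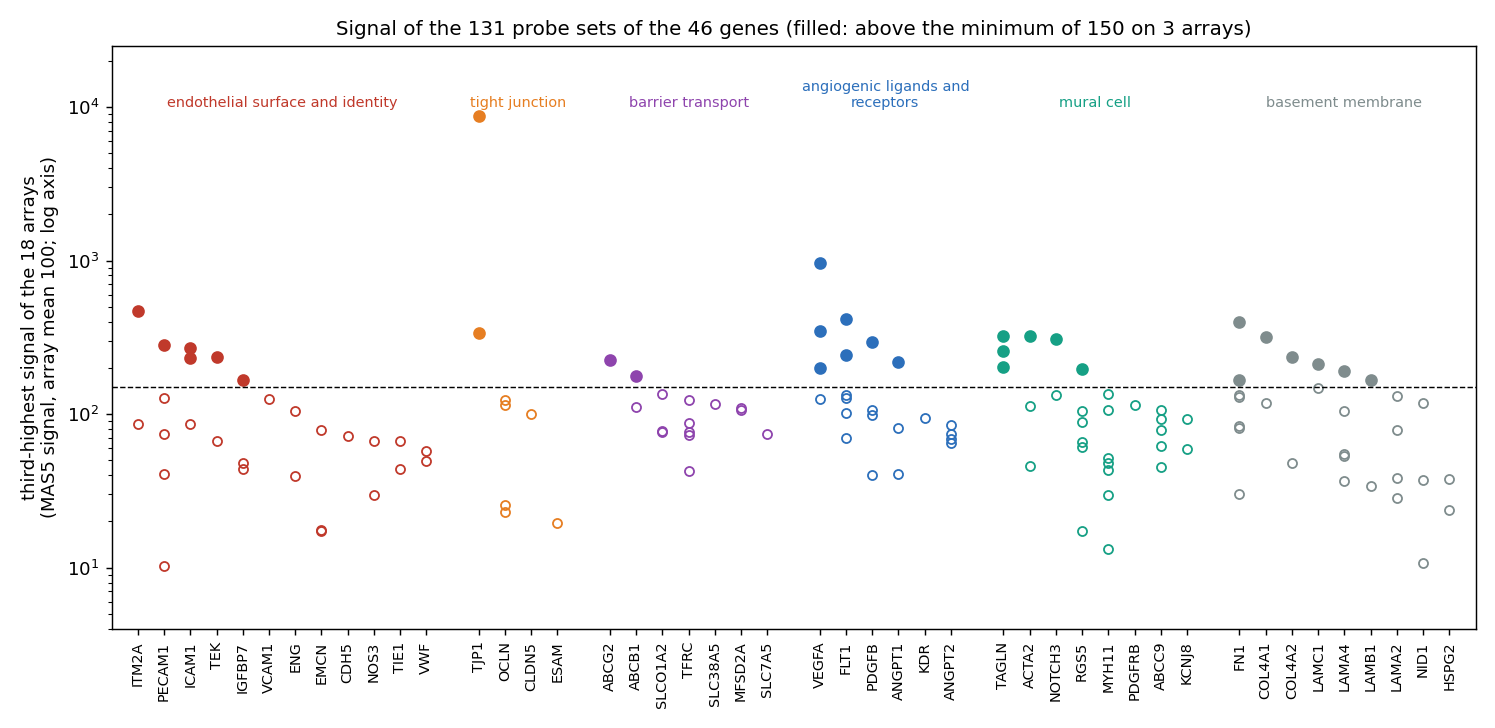
Third-highest MAS5 signal over the 18 arrays (log axis) of each of the 131 probe sets, grouped by gene and role; filled points reached the minimum of 150 (dashed line) on 3 arrays and open points did not. TJP1 stands far above the rest, and 24 genes have open points only.

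The 24 genes without a kept probe set are described mainly by their highest values. Their brightest probe set had a third-highest signal between 19.4 for ESAM, an adhesion molecule of endothelial contacts, and 136 for SLCO1A2, an organic anion transporter, and for MYH11, the smooth muscle myosin. CLDN5, the claudin that seals the barrier, had signals of 100.1 and 33.8 in “AD-like” animals (F1 and F2, in this order throughout), of 20.5 to 87.0 in old animals and of 12.6 to 185 in young adults. Its groups overlapped. The median was 33.3 in old animals and 78.0 in young adults, where array medians lay between 30.8 and 54.4. The log2 difference was -0.74 (SE 0.36) between old and young adult animals. It was 0.52 (SE 0.53) for “AD-like” against old animals and -0.22 (SE 0.56) against young adults. These values come from a single probe set under the minimum signal. Other genes in this class were ENG, EMCN, NOS3 and VCAM1 on the endothelial surface, OCLN at the junction, SLC7A5, SLC38A5, MFSD2A and TFRC among transporters, KDR and ANGPT2 among angiogenic genes, ABCC9 and KCNJ8 in pericytes, and LAMA2, NID1 and HSPG2 in the basement membrane. The probe set nearest to the minimum from below was a second one of LAMC1 (148), and the nearest from above was that of IGFBP7 (166).

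No vascular probe set passed the adjusted threshold of 0.05 in any comparison (limma on log2(signal + 16), Benjamini-Hochberg over the 14567 kept probe sets). In “AD-like” against old animals 3 of the 30 kept probe sets had an unadjusted p under 0.05 (10.0%, against 4.84% of all kept probe sets). One was higher (3.33%, against 1.22%) and 2 were lower (6.67%, against 3.62%). With no minimum signal this balance turned round, since 7 of 131 probe sets were higher (5.34%, against 3.93% of all 54613) and 3 lower (2.29%, against 1.81%). The 7 were those of ABCC9, ITM2A, LAMA2, TEK and TFRC and 2 of MYH11. The 3 lower ones included a PECAM1 probe set under the minimum signal. After adjustment 0 remained, against 0.00686% of all kept probe sets, which is 1 probe set. In old against young adult animals 0 of 30 had an unadjusted p under 0.05 (background 5.91%) and 0 an adjusted one (background 0.0%). In “AD-like” against young adult animals 2 of 30 had an unadjusted p under 0.05, both lower (6.67%, against 3.21% of all kept probe sets lower and 4.34% in both directions), and 0 an adjusted one (background 0.0%). The methods' t-test on linear signals gave 3, 0 and 3 probe sets in these comparisons before adjustment and 0 after it. These shares rest on 1 to 3 probe sets each, so they were not read as different from the background.

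Taking for each of the 22 genes its brightest kept probe set, the median log2 difference was -0.10 in “AD-like” against old animals (all 8660 genes: -0.05), with 9 genes higher and 13 lower (59.1%, against 54.4% of all genes). It was -0.08 in old against young adult animals (all genes: 0.05), with 7 higher and 15 lower (68.2%, against 44.2%), and -0.16 in “AD-like” against young adult animals (all genes: 0.01), with 8 higher and 14 lower (63.6%, against 49.6%). These medians moved when single animals were left out. The first was 0.06 without “AD-like” F2, so its sign turned, and ran down to -0.14 without old M2. The second ran between -0.13 without old F1 and -0.01 without young adult F2. The third ran between -0.28 without young adult F4 and -0.08 without “AD-like” F2. Standard errors of single genes ran between 0.28 and 0.91 for “AD-like” against old animals and between 0.19 and 0.61 for old against young adult animals.

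**Figure D2:**
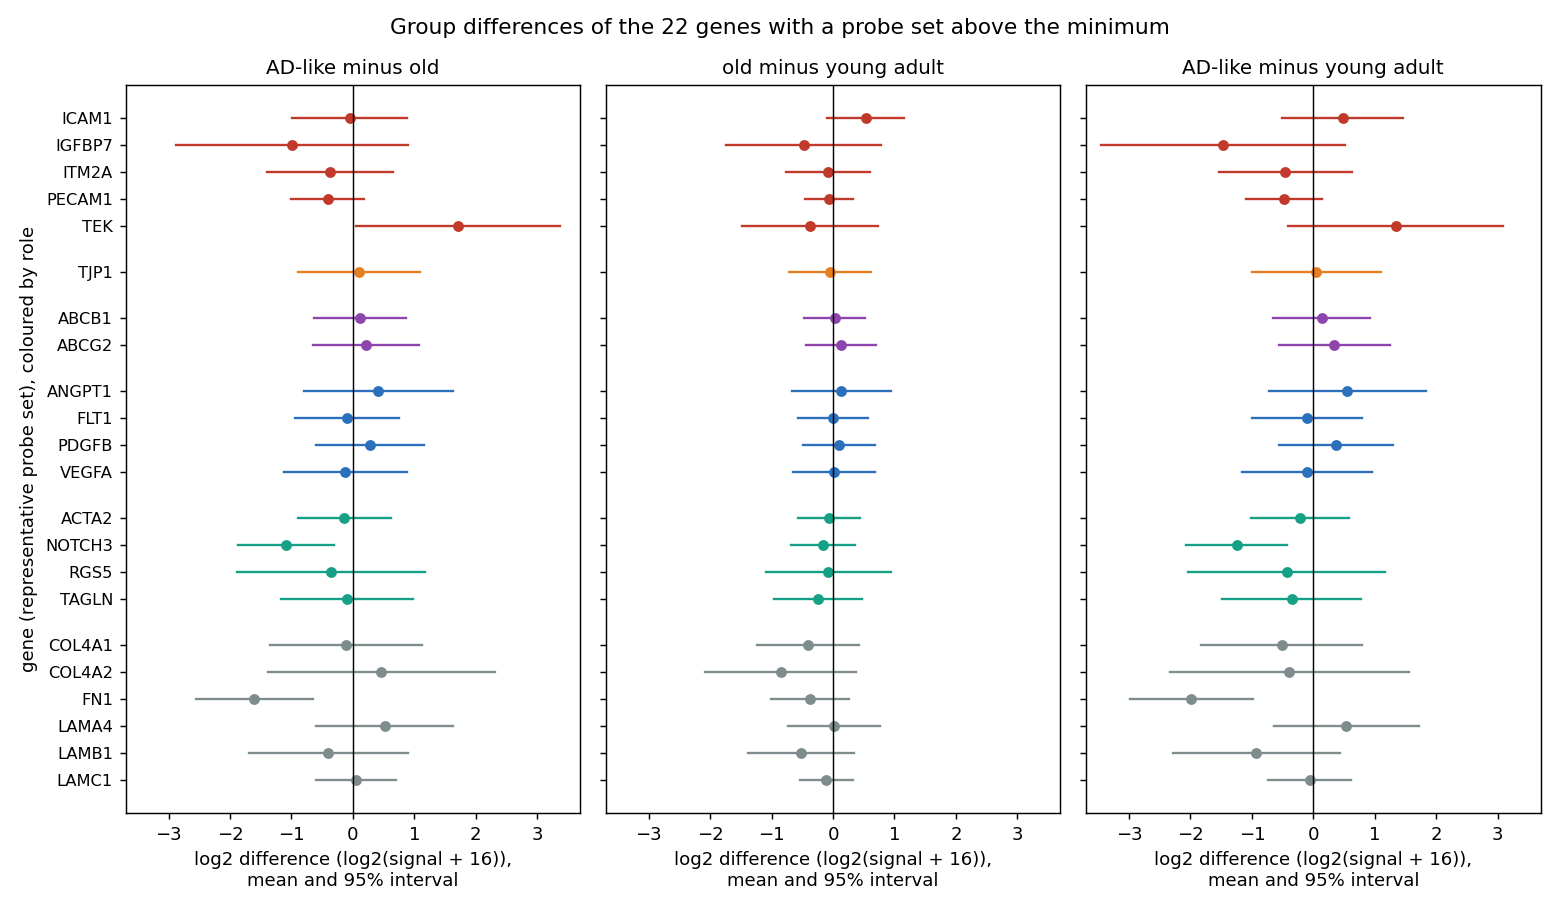
Log2 difference on the log2(signal + 16) scale with its 95% interval (limma, 18 arrays) for the 22 genes, in each of 3 group comparisons, coloured by role. The intervals of FN1 and NOTCH3 lie below 0 in both comparisons with “AD-like” animals and that of TEK lies above 0 against old animals, and every other interval crosses 0.

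On the endothelial surface, TEK was the gene with the smallest p, in its kept probe set. Its other probe set, under the minimum signal, showed no such difference in “AD-like” animals. It gave 0.20 (SE 0.65) against old animals and -0.08 (SE 0.69) against young adults. The kept probe set read 73.1 and 356 in “AD-like” animals, against 17.0, 25.1 and 234 (lowest, median and highest) in old animals. In young adults it read 10.1, 35.7 and 254. The groups overlapped, and 4 animals were above 200, namely “AD-like” F2, old M1, young adult M2 and young adult F4, of which 3 were on arrays without poly-A control. The log2 difference was 1.72 (SE 0.80, limma adjusted p = 0.972) against old animals and 1.35 (SE 0.84, adjusted p = 1.0) against young adults. Within the 14 arrays with poly-A control, where 1 “AD-like” animal was left, the difference against old animals was 1.03, and without “AD-like” F2 alone it was 0.68, whereas without “AD-like” F1 it was 2.75. The unadjusted threshold was no longer met within these arrays or without F2, nor without old F1, F2, F3, F5, F6, F7 or M3 (1.63 to 1.70).

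PECAM1 varied least of the 30 probe sets, with a within-group SD of 0.25 on the log2 scale. Its signal was 223 and 135 in “AD-like” animals, against 189, 218 and 314 in old animals, and 185, 256.5 and 283 in young adults. “AD-like” F2 was below all other animals and “AD-like” F1 was within the old range. The differences were -0.41 (SE 0.28, limma adjusted p = 0.972) against old animals, and -0.48 (SE 0.30, adjusted p = 1.0) against young adults.

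ICAM1, the adhesion molecule that leukocytes bind on activated endothelium, had 2 kept probe sets that pointed in opposite directions with age. The brighter one read 164 and 154.5 in “AD-like” animals, against 92.4, 173 and 235 in old animals, and 40.9, 139 and 241 in young adults. Of 10 old animals 8 exceeded the median of young adults, and the difference was 0.53 (SE 0.30, limma adjusted p = 0.85). The dimmer one gave -0.66 (SE 0.48, adjusted p = 0.877), so the gene had no single direction. ITM2A, a membrane protein of brain endothelium, differed by -0.37 (SE 0.50) between “AD-like” and old animals in its kept probe set. Between old and young adult animals that probe set differed by -0.09 (SE 0.33). The other ITM2A probe set, under the minimum signal, went the other way between “AD-like” and old animals, at 1.28 (SE 0.52), and gave -0.20 (SE 0.34) with age.

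IGFBP7, a protein secreted into the vessel matrix, was scattered within groups. It read 17.7 and 13.9 in “AD-like” animals, against 10.5, 29.8 and 166 in old animals, and 14.1, 42.3 and 575 in young adults. The within-group SD was 1.33 on the log2 scale, and all groups held animals near background.

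The junction was represented by TJP1, the scaffold protein ZO-1, which links tight junctions to the cytoskeleton and is also made by neurons and astrocytes. Its brighter probe set was by far the brightest of the list and read 6774 and 4898 in “AD-like” animals, against 2332, 5977 and 9329 in old animals, and 3484, 5696 and 9640 in young adults. The “AD-like” values lay within both other groups. The differences were 0.10 (95% interval -0.90 to 1.10) for “AD-like” against old animals, and -0.05 (-0.71 to 0.62) for old against young adult animals. These intervals leave room for a difference of 0.90 in either direction between “AD-like” and old animals.

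Both transporters with a kept probe set pump drugs and other foreign compounds back into the blood. ABCB1, P-glycoprotein, read 138 and 136 in “AD-like” animals, against 56.6, 122.5 and 199 in old animals, and 93.1, 125 and 155 in young adults. ABCG2 read 217 and 195 in “AD-like” animals, against 47.5, 196 and 286 in old animals, and 107, 163 and 228 in young adults. Both genes overlapped in all groups. For the kept ABCB1 probe set the difference between “AD-like” and old animals was 0.11 (95% interval -0.63 to 0.86) and that between old and young adult animals 0.03 (-0.47 to 0.52). For ABCG2 these differences were 0.22 (-0.64 to 1.08) and 0.12 (-0.45 to 0.70). The other ABCB1 probe set, under the minimum signal, gave 0.48 (-0.61 to 1.56) between “AD-like” and old animals. Between old and young adult animals it gave -1.10 (-1.83 to -0.38), so the ABCB1 probe sets disagreed with age.

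Among angiogenic genes, ANGPT1, the TEK ligand that mural cells release to stabilise vessels, read 140.5 and 217 in “AD-like” animals, against 7.01, 153 and 252.5 in old animals, and 81.3, 118 and 133.3 in young adults. Both “AD-like” animals were above all young adults but within the old range. The difference against young adults was 0.55 (SE 0.61, limma adjusted p = 1.0). PDGFB, the endothelial ligand that recruits pericytes, read 219 and 295 in “AD-like” animals, against 88.0, 229.8 and 315 in old animals, and 94.8, 187 and 377 in young adults. Its differences were 0.28 (SE 0.42) for “AD-like” against old and 0.09 (SE 0.28) for old against young adult animals. FLT1, a VEGF receptor, differed by -0.10 (SE 0.41) and -0.01 (SE 0.27) in the same comparisons with its brighter probe set.

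VEGFA, the main growth factor of endothelial cells, had 3 kept probe sets, whose differences were not of 1 sign. The brightest read 595 and 454 in “AD-like” animals, against 209.8, 596 and 982 in old animals, and 389, 503.5 and 1186 in young adults, a difference of -0.12 (SE 0.48) between “AD-like” and old animals. The middle one by brightness read 29.5 and 283.5 in “AD-like” animals, against 86.4, 257 and 361 in old animals, and 93.6, 265 and 351.2 in young adults. Here “AD-like” F1 was below all other animals and “AD-like” F2 was not. The difference was -1.12 (SE 0.57, limma adjusted p = 0.972), whereas the dimmest gave 0.22 (SE 0.42).

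The 4 mural genes with a kept probe set had lower fitted means in “AD-like” animals against old animals (54.4% of all genes were lower) and against young adults (49.6%), and of these only NOTCH3 had an unadjusted p under 0.05. Other mural genes did not all follow. Of 5 further mural genes kept from the same pathways 3 were higher and 2 lower, with a median of 0.08 in both comparisons. Of the 29 mural probe sets on the array 6 were kept. Among those under the minimum signal, 1 of MYH11 was higher than in old animals by 1.31 (SE 0.53) and 1 of ABCC9, a potassium channel subunit, by 1.14 (SE 0.45). These are single probe sets, and the directions of the rest were not counted. NOTCH3 is the Notch receptor of vascular smooth muscle and pericytes, and its mutations cause the hereditary small vessel disease CADASIL. Its signal was 75.0 and 101 in “AD-like” animals, against 125, 197 and 333 in old animals, and 123, 242 and 345.5 in young adults. Both “AD-like” animals were below all 10 old and all 6 young adult animals. It was the only one of the 30 probe sets whose “AD-like” and old values did not overlap (3.33%, against 3.02% of all kept probe sets). The log2 difference was -1.09 (SE 0.38, limma adjusted p = 0.814) against old animals, and -1.25 (SE 0.40, adjusted p = 0.779) against young adults. Within the arrays with poly-A control these differences were -1.30 and -1.46. Without “AD-like” F1 they were -0.91 and -1.07 and no longer met the unadjusted threshold. With a replicate block the difference against old animals was -0.78 and did not meet it either. Old and young adult animals differed by -0.16 (SE 0.25, limma adjusted p = 0.94). The other NOTCH3 probe set, under the minimum signal, did not separate the groups. It read 43.9 and 15.8 in “AD-like” animals, against 17.8 to 152 in old animals and 21.7 to 134 in young adults. There “AD-like” F2 was below all other animals and “AD-like” F1 was within both ranges.

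The other mural genes showed no such separation. ACTA2, the smooth muscle actin, differed by -0.14 (SE 0.36) between “AD-like” and old animals, and RGS5, a regulator of G protein signalling in pericytes, by -0.36 (SE 0.73). TAGLN, a smooth muscle protein that binds actin, read 139 and 111 in “AD-like” animals with its brightest probe set, against 34.4, 156 and 316 in old animals, and 104.5, 160 and 295.5 in young adults. Its 3 kept probe sets gave differences of -0.10, -1.45 and 0.05, from the brightest to the dimmest, between “AD-like” and old animals, with standard errors of 0.52, 0.83 and 0.57. The middle one by brightness was either between 29.4 and 50.6 or between 246 and 357 in old animals, 5 animals each. The summed signal of the mural markers ACTA2, NOTCH3 and RGS5 was 278 and 469 in “AD-like” animals, against 390.4 to 709 in old animals, and 451 to 793.5 in young adults.

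Of the basement membrane genes, FN1 had the smallest p of the whole list. FN1 encodes fibronectin, a glycoprotein of plasma and of the vessel matrix that integrins bind. The brighter of its 2 kept probe sets read 42.0 and 113 in “AD-like” animals, against 96.3, 302 and 385 in old animals, and 193, 348 and 457 in young adults. Both “AD-like” animals were below all young adults, while 1 old male (M2, 96.3) was below “AD-like” F2. Means were 77.5 ± 50.2 in “AD-like”, 269 ± 103 in old and 339.9 ± 99.9 in young adult animals (SD over 2, 10 and 6 animals). The log2 difference was -1.61 (SE 0.46, limma adjusted p = 0.695) against old animals, and -1.99 (SE 0.48, adjusted p = 0.451) against young adults. Within the arrays with poly-A control these differences were -2.27 and -2.50. Without “AD-like” F1 they were -1.03 and -1.41, and the one against old animals no longer met the unadjusted threshold.

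The dimmer FN1 probe set did not share that difference. It read 150.3 and 105 in “AD-like” animals, against 28.3, 120.3 and 167 in old animals, and 20.6, 92.7 and 339 in young adults. Its differences were 0.12 (SE 0.66, limma adjusted p = 0.993) against old animals and 0.42 (SE 0.69, adjusted p = 1.0) against young adults. Other FN1 probe sets did not pass the minimum signal. Marker sums for fibroblasts and meninges, which also make fibronectin, were 1233 and 1181 in “AD-like” animals, against 717 to 1777 in old animals, and 957.5 to 1461 in young adults, with 5 of 6 markers kept. Their part in the FN1 signal was not tested. Together with NOTCH3 and ANGPT1, FN1 made 3 of 30 probe sets whose “AD-like” and young adult values did not overlap (10.0%, against 5.59% of all kept probe sets).

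**Figure D3:**
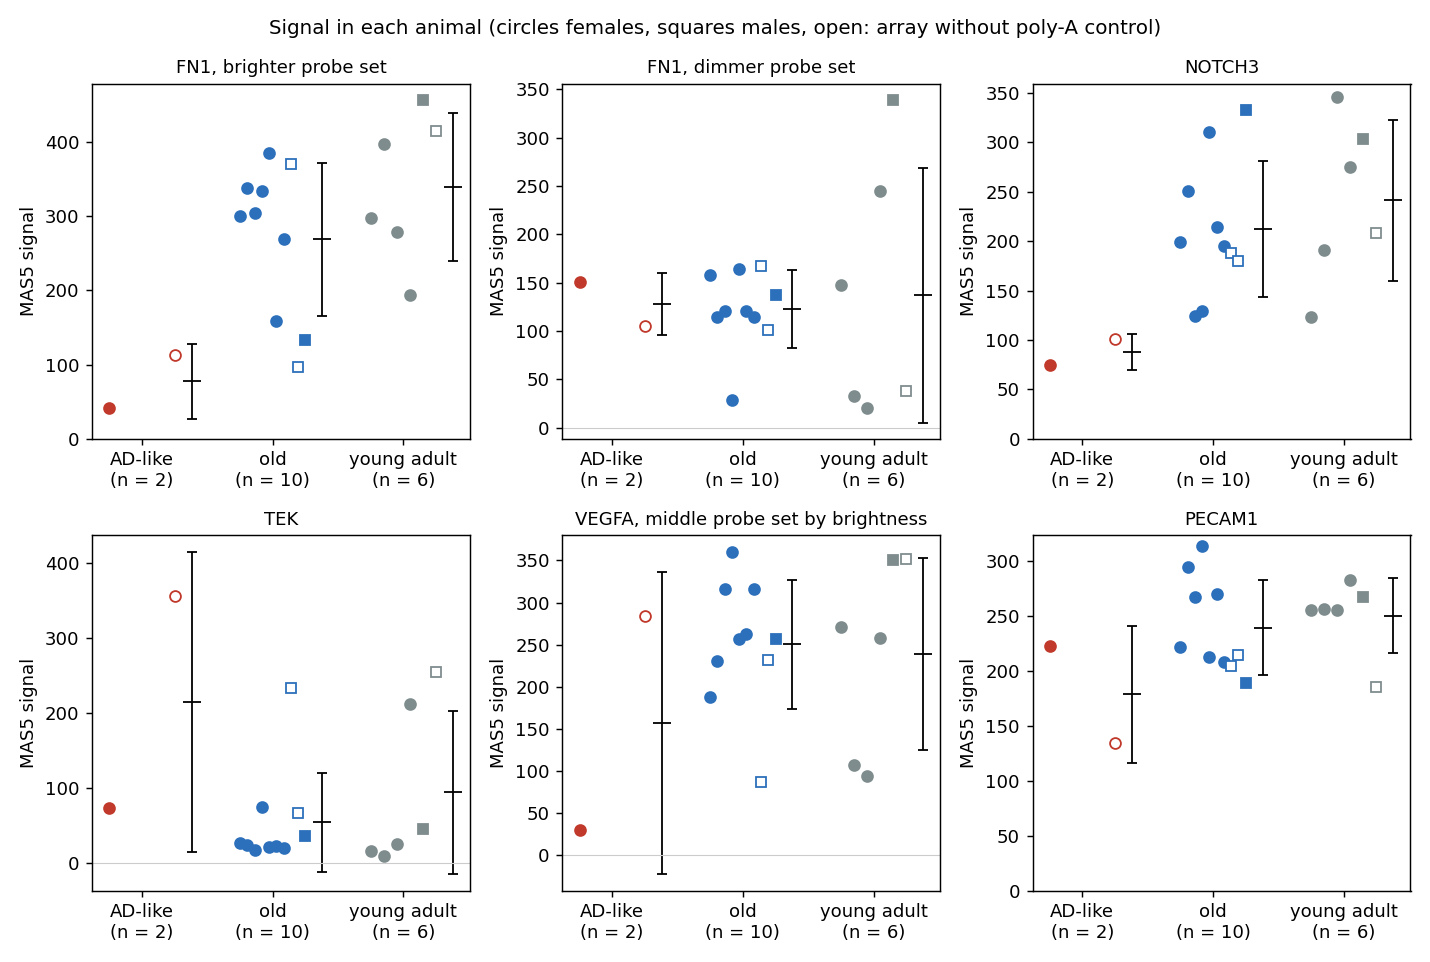
MAS5 signal in each animal for 6 probe sets, with the mean and SD of each group to the right of its points; circles are females, squares are males and open symbols are arrays without poly-A control. NOTCH3 of both “AD-like” animals lies below all others in its kept probe set. FN1 does so in 1 of its 2 kept probe sets, against young adults only. The high TEK values are mostly open symbols.

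No kept collagen or laminin probe set had an unadjusted p under 0.05 in any comparison. The 4 LAMA2 probe sets, all under the minimum signal, differed by 0.24 to 1.06 between “AD-like” and old animals. Their differences against young adults were 0.14 to 1.21. Old animals had lower fitted means than young adults for 5 of 6 basement membrane genes (83.3%, against 44.2% of all genes), with a median of -0.39 (all genes: 0.05). Of 5 further basement membrane genes 2 were higher and 3 lower, with a median of -0.04. The largest differences among the 6 were those of COL4A2 (-0.86, SE 0.59), LAMB1 (-0.52, SE 0.41) and COL4A1 (-0.41, SE 0.40), with limma adjusted p of 0.867, 0.888 and 0.903. The other probe sets of these genes, under the minimum signal, gave -0.72 (SE 0.32), -0.15 (SE 0.37) and 0.50 (SE 0.40) in the same order. COL4A1 thus had no single direction with age. LAMB1, a laminin chain, read 93.1 and 27.2 in “AD-like” animals, against 17.4, 80.2 and 182 in old animals, and 22.6, 150.2 and 249.7 in young adults. LAMC1, which pairs with it in most laminins, was steadier, with a within-group SD of 0.31 and a difference of -0.11 (SE 0.21) between old and young adult animals. LAMA4, the laminin chain of vessel walls, gave 0.02 (SE 0.36) with age and 0.52 (SE 0.54) between “AD-like” and old animals.

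COL4A1 and COL4A2 encode the chains that assemble into vascular collagen IV, and their genes lie side by side in the lemur annotation. COL4A1 read 221 and 103.5 in “AD-like” animals, against 64.5, 148 and 570.0 in old animals, and 85.6, 256 and 474 in young adults. COL4A2 read 26.4 and 237 in “AD-like” animals, against 9.78, 79.4 and 249 in old animals, and 14.7, 136 and 468 in young adults. COL4A2 split the animals into 6 with signals of 9.78 to 26.4 (1 “AD-like”, 4 old and 1 young adult, all females) and 12 with signals of 78.3 to 468. The 4 highest values were on the 4 arrays without poly-A control. COL4A1 read 164.5 to 319 in the 6 animals and 64.5 to 570.0 in the 12. Over 18 animals both genes had r = -0.27 (permutation p = 0.276, rho -0.30, p = 0.223). The value of r was -0.34 without the 2 farthest animals and -0.10 within the arrays with poly-A control. Because COL4A2 was split, and its 6 low values lay below the median of every array, these values cannot decide whether both genes are related.

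**Figure D4:**
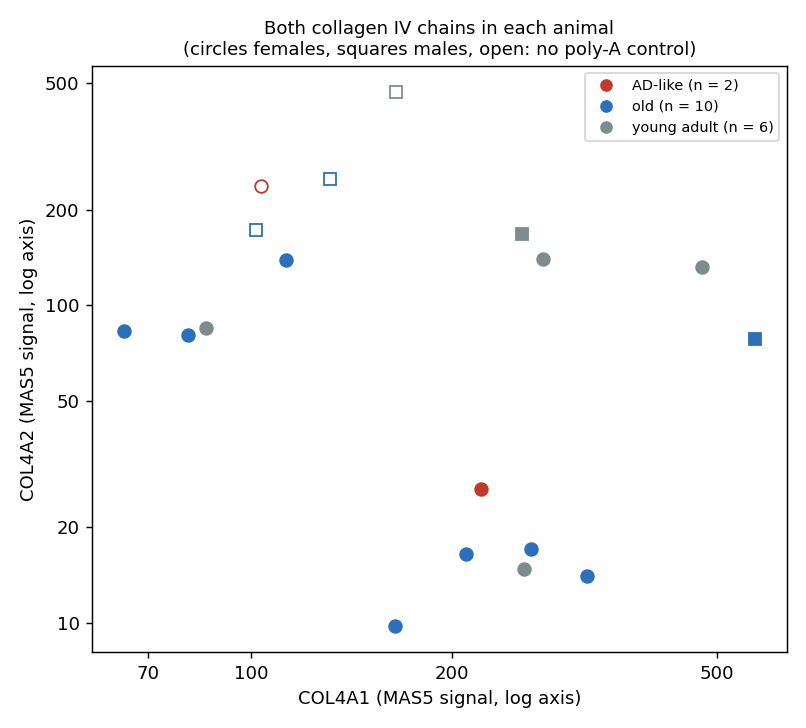
MAS5 signal of COL4A1 against that of COL4A2 in each of the 18 animals (both axes log), coloured by group; circles are females, squares are males and open symbols are arrays without poly-A control. COL4A2 falls into 6 animals between 9.78 and 26.4 and 12 animals from 78.3 up, and the 4 open symbols are the highest.

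Of 12 pairs of partner genes listed, 3 had a kept probe set for both genes. Beside the collagen pair, LAMB1 and LAMC1 had r = -0.14 (permutation p = 0.587, rho -0.17, p = 0.506) over 18 animals, -0.18 without the 2 farthest animals and -0.10 within the 14 arrays with poly-A control. ACTA2 and TAGLN had r = 0.26 (permutation p = 0.293, rho 0.31, p = 0.216), 0.17 without the 2 farthest animals and 0.41 within the arrays with poly-A control. Adjusted over 3 pairs, the permutation p of r was 0.439 for the collagen pair, 0.587 for LAMB1 and LAMC1 and 0.439 for ACTA2 and TAGLN. That of rho was 0.335, 0.506 and 0.335 in the same order. No relation was detected in the laminin pair or in ACTA2 and TAGLN.

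The age comparison was then split by sex, which the 16 old and young adult animals allow. In males, old animals had a lower fitted mean than young adults for 21 of 22 genes (95.5%, against 47.3% of all genes), with a median of -0.40 (all genes: 0.04). In females this held for 10 of 22 genes (45.5%, against 44.8% of all genes), with a median of 0.02 (all genes: 0.04). The exception in males was PDGFB, at 0.67. This count was chosen after its values were seen and compares 3 old with 2 young adult males. Leaving out 1 male at a time gave 16 to 20 of 22 genes, the lowest without old M3 and without young adult M1, and medians between -0.75 (without old M1) and -0.27 (without old M2). Within the arrays with poly-A control, where 1 old and 1 young adult male remained, it was 16 of 22, with a median of -0.33.

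The difference between the sexes itself, males minus females, had a median of -0.43 over the 22 genes (all genes: 0.01), with 5 genes higher and 17 lower. Of the 30 probe sets, 2 had an unadjusted p under 0.05 for this difference (6.67%, against 4.85% of all kept probe sets) and 0 an adjusted one (background 0.0%), in limma. The brighter FN1 probe set read 371, 96.3 and 134 in old males, against 457 and 415 in young adult males, a difference of -1.28. In old females it read 159 to 385, against 193 to 398 in young adult females, a difference of 0.03. The sexes thus differed by -1.31 (SE 0.57, limma adjusted p = 0.981), and by -1.69 within the arrays with poly-A control. Without old M2 the value was -0.94, and it no longer met the unadjusted threshold without old M2 or M3 or young adult M1, M2 or F4.

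The middle VEGFA probe set read 86.4, 231 and 257 in old males, against 350.3 and 351.2 in young adult males, a difference of -0.95. In old females it read 187 to 361, against 93.6 to 271 in young adult females, a difference of 0.67. The sexes differed by -1.61 (SE 0.58, limma adjusted p = 0.968). Within the arrays with poly-A control the value was -1.09 and without old M1 it was -1.16, and neither met the unadjusted threshold. The brightest and the dimmest VEGFA probe set gave -0.60 (SE 0.59) and 0.59 (SE 0.62).

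Markers of other cells were also read in the males. With 3 old and 2 young adult males, groups without overlap arise easily by chance, and no background share was taken for them. The summed neuron markers (8 of 8 kept) were 44840, 41370 and 49850 in old males, against 27780 and 38180 in young adult males, with no overlap. The fibroblast and meninges markers (5 of 6 kept, LUM not kept) were 956, 889 and 717 in old males, against 1276 and 1054 in young adult males, also with no overlap. Of the 5 male arrays, 3 lacked poly-A control (2 old and 1 young adult). Summed astrocyte markers (5 of 6 kept) were 6410, 7791 and 7649 in old males, against 5781 and 8994 in young adult males, and oligodendrocyte markers (5 of 6 kept) were 839, 601 and 964, against 1053 and 667, so both overlapped, as did the choroid plexus and red blood cell markers. P2RY12, the only microglia marker kept of 8, read 8.89, 8.61 and 60.8 in old males, against 93.2 and 266 in young adult males. The part of these differences in the vascular values was not tested.

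**Figure D5:**
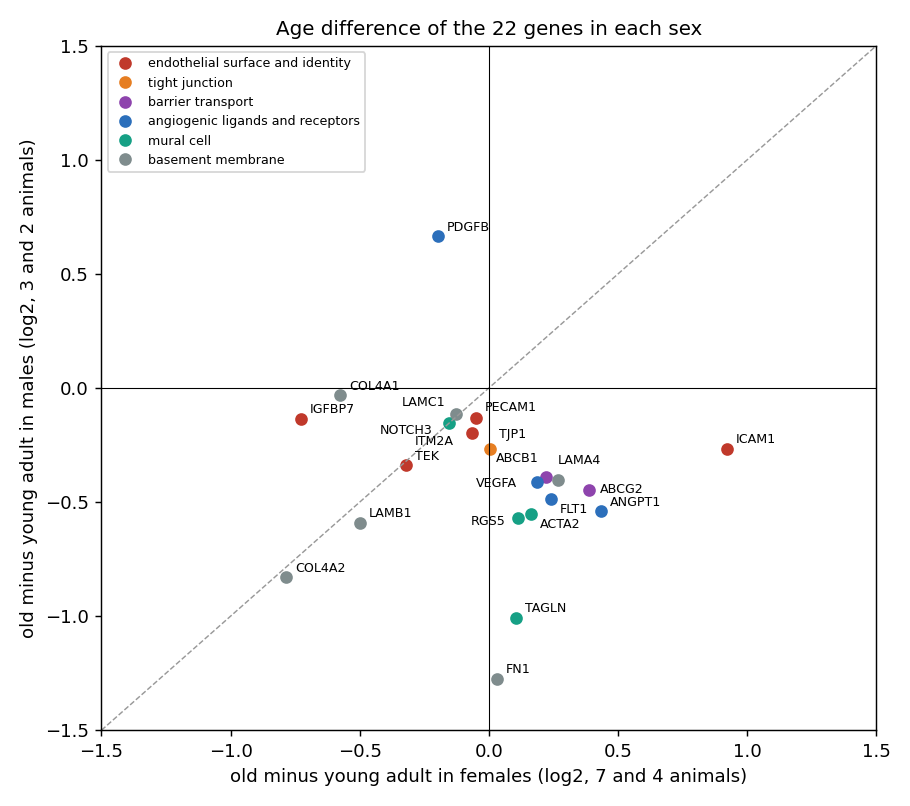
Old minus young adult difference (log2 scale) of the 22 genes in males (vertical axis, 3 and 2 animals) and in females (horizontal axis, 7 and 4 animals), coloured by role; the dashed line marks equal differences. All genes but PDGFB lie below 0 in males, whereas in females 12 lie above 0.

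A further 83 genes of the same pathways were read in the same way, and 39 had a kept probe set. Counting genes with an unadjusted p under 0.05, in “AD-like” against old animals 0 of 39 were higher (all genes: 1.14%) and 2 were lower (5.13%, against 3.83%). In old against young adult animals 1 was higher (2.56%, against 3.57%) and 1 lower (2.56%, against 2.26%), and in “AD-like” against young adult animals 0 were higher (all genes: 1.09%) and 4 lower (10.3%, against 3.29%). These counts take the brightest kept probe set of each gene. None passed adjustment in limma. PTPRB, the endothelial phosphatase that dampens TEK, read 94.1 and 64.6 in “AD-like” animals, against 79.5, 155 and 287 in old animals, and 122.5, 218 and 332 in young adults. Its differences were -0.89 (SE 0.40, adjusted p = 0.972) against old animals and -1.25 (SE 0.42, adjusted p = 0.913) against young adults. NRP2, a co-receptor for VEGF and semaphorins, gave -1.40 (SE 0.47, adjusted p = 0.798) against old animals with its brightest probe set, but 0.41, 0.27 and 0.09 with the others. LRP1, a receptor that carries amyloid out of the brain, went the other way with its dimmer probe set, which read 251 and 258 in “AD-like” animals, against 76.2, 125 and 162 in old animals, and 110.1, 171 and 283 in young adults. Both “AD-like” animals were above all old animals, and the difference was 1.00 (SE 0.35, adjusted p = 0.812), while the brighter probe set gave 0.00 (SE 0.60). A2M, alpha-2-macroglobulin, a protease inhibitor made by endothelium in human brain, read 91.5 and 101 in “AD-like” animals, against 96.5, 139.9 and 164 in old animals, and 156, 177 and 209.7 in young adults. Both “AD-like” animals were below all young adults, and the difference was -0.78 (SE 0.28, adjusted p = 1.0).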

How the data were processed

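The authors scanned 1 array per animal and reduced it to MAS5 signals with GCOS 1.2, per the labels. The intensity values deposited by the authors are linear and their trimmed mean (2% at each end) is 100.01 to 100.02 on all 18 arrays. Detection calls were not used here. Probe sets were named from GEO's platform annotation. The 62 control probe sets were left out, and log2(signal + 16) of those that reached 150 on 3 or more arrays was tested with limma 3.58.1 in R 4.3.3, in a model of 3 group means, or of age, sex and their interaction. Fold changes on this scale understate changes of dim genes. Adjusted p-values use the Benjamini-Hochberg method over 14567 probe sets, with a threshold of 0.05. Correlations used two-sided permutation tests in Python 3.11.15 with scipy 1.17.1 (100000 resamples).

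The brightest kept probe set by mean signal represented each gene. Values are given for genes with an unadjusted p under 0.05 in any comparison, for the 2 genes per role with the smallest F-test p, and for the other members by differences, ranges or where probe sets disagreed; PECAM1, IGFBP7, COL4A1 and COL4A2 were added after their values were seen. Members and lists were chosen with earlier results of these data known. Scripts were tested on simulated data. Alternatives covered the offset, normalization, filter, sex, array weights, poly-A control, replicate numbers, the methods' t-test and leaving out each animal. The number of arrays, 2 of them “AD-like”, limits the precision. P-values measure the spread between animals.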

Additional observations from a re-analysis of the deposited data

Results flagged for a closer look

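For 30 probe sets, 60 groups of 6 or 10 animals (old and young adult) were checked for a single far value. A group was flagged when the gap between 1 animal and the next took an unusually large part of its range, nominally in about 1 group in 20. That rate was not measured over all kept probe sets, and the same animals recur in these groups, so no excess was read from the count. The flag was met in 9 groups, in each of them by 1 animal. In old animals these were M3 at the low end for ANGPT1 (7.01, next 86.9, gap 0.61 of the range) and for ABCG2 (47.5, next 142, gap 0.583). They were also F4 at the low end for the dimmest VEGFA probe set (44.0, next 113, gap 0.551) and for the dimmer FN1 probe set (28.3, next 100.8, gap 0.683), and M1 at the low end for the middle VEGFA probe set (86.4, next 187, gap 0.527) and at the high end for TEK (234, next 74.6, gap 0.501). In young adults they were F1 at the high end for the middle TAGLN probe set (236, next 64.2, gap 0.665), F2 at the high end for the brightest VEGFA probe set (1186, next 553, gap 0.688) and M2 at the low end for PECAM1 (185, next 255.5, gap 0.757). Arrays without poly-A control gave 3 of these 9 values, namely old M1 in both cases and young adult M2.

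The age difference of the brighter FN1 probe set differed between the sexes by -1.31 (males -1.28, females 0.03) and that of the middle VEGFA probe set by -1.61 (males -0.95, females 0.67), each at an unadjusted p under 0.05 and an adjusted p of 0.981 and 0.968 (limma interaction term).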

How the results depend on the processing

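Over all alternatives run, 0 member probe sets passed adjustment in any comparison, and no difference of FN1, NOTCH3, TEK or VEGFA that had an unadjusted p under 0.05 turned its sign. Without the filter 10, 11 and 11 of 131 probe sets had an unadjusted p under 0.05 in “AD-like” against old, old against young adult and “AD-like” against young adult animals (7.63%, 8.4% and 8.4%, against 5.74%, 5.36% and 4.93% of all 54613), in place of 3, 0 and 2 of 30. The numbers higher were 7, 5 and 8 (all: 3.93%, 1.83% and 2.88%) and those lower 3, 6 and 3 (all: 1.81%, 3.52% and 2.04%). For the difference between the sexes it was 7 (5.34%, against 5.26%) in place of 2, and the median over the genes was -0.14. Leaving out 1 animal gave 1 to 4, 0 to 2, 2 to 3 and 1 to 4 probe sets in these comparisons. Without “AD-like” F1 only TEK remained in the first, and without young adult F3 the second had 2, and without young adult F1, F2 or M1 it had 1. For the sex difference without old M1, or without young adult F3, there were 4, and without young adult F4 there was 1. Its median ran between -0.69 (without old M1) and -0.20 (without old M3). In old against young adult animals females only, poly-A control as a block and array weights gave 1 each (3.33%, against 4.63%, 8.51% and 5.22% of all kept probe sets). In “AD-like” against young adult animals sex as a covariate and females only gave 4 each (13.3%, against 8.21% and 8.35%). Within the arrays with poly-A control the sex difference had 5 (16.7%, against 10.8%), where old and young adult males were 1 animal each and were taken to vary like the other groups. Choosing each gene's probe set by its third-highest signal gave a median sex difference of -0.25. TEK also lost the unadjusted threshold with an offset of 1 (2.11), with poly-A control as a block (1.13) and without any 1 of 7 old animals. The causes were not tested, other than that the filter sets how many probe sets are tested.

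Replicate numbers recur across groups, but the correlations of same-numbered animals ran between -0.27 and 0.47, so the numbers were not taken as pairs. With a replicate block, 5, 2 and 7 probe sets (16.7%, 6.67% and 23.3%, against 15.5%, 6.75% and 12.7% of all kept probe sets) had an unadjusted p under 0.05 in “AD-like” against old, old against young adult and “AD-like” against young adult animals. NOTCH3 was not among the 5. The medians were -0.28 for “AD-like” against old and -0.38 for “AD-like” against young adult animals.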
